A study of Homo sapiens with 8 samples.

Results

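The 12q13 block is the stretch of chromosome 12 from 57350001 to 57850000 on hg19, 500 kb that hold the starts of 8 genes: NAB2, STAT6, LRP1, NXPH4, SHMT2, NDUFA4L2, STAC3 and R3HDM2. Its members are the windows of the deposited SON TSA-seq tables that lie wholly inside these limits, 37 of 278316 windows of 100 kb and 82 of 556938 windows of 50 kb. Both treatments also had to reach a log2 concentration of 2, which all 37 and all 82 windows did. The block was chosen from its lower SON signal after HIF-2α inhibition, so every change given for it is a description of the values that selected it, and the authors' FDR is printed beside a value without serving as a test of the block.

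The cells were 786-O, an established human clear cell renal carcinoma line, grown in ambient oxygen and exposed for 3 h to DMSO vehicle or to 2 µM PT2399, a small molecule that keeps HIF-2α from binding its partner ARNT. The series has 8 libraries, with pulldown and input in 2 replicates per treatment; in 4 of them the title and the antibody or treatment field disagree, and the titles were followed. The deposited tables give 1 mean concentration per treatment for each window, with no value per library, so there is no spread between replicates, the depth of a library is unknown, and the direction of every change rests on the column names control and treatment and on the authors' name for their list of lower windows. Whether the pulldowns came from separate cultures is not stated, so the authors' p-values may measure technical spread only.

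Nuclear speckles are bodies rich in splicing factors, built around SON and SRRM2, and active gene-dense chromatin tends to lie near them. TSA-seq deposits tyramide-biotin around an antibody, here against SON, so pulled-down DNA is enriched for chromatin close to speckles. HIF-2α is a hypoxia-inducible transcription factor. It escapes degradation in most clear cell renal carcinomas, where it drives many target genes. NDUFA4L2 encodes a mitochondrial protein related to a subunit of cytochrome c oxidase and is a well-known hypoxia-induced gene in this cancer; RefSeq now names it COXFA4L2. Among its neighbours, SHMT2 encodes the mitochondrial serine hydroxymethyltransferase of one-carbon metabolism, LRP1 a large endocytic receptor at the cell surface, STAT6 the transcription factor of interleukin-4 signalling and NAB2 a corepressor of EGR proteins. NXPH4 encodes a neurexophilin, STAC3 an adaptor of excitation-contraction coupling in skeletal muscle, and R3HDM2 a protein with an R3H domain.

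The 8 starts are spaced unevenly, which matters for windows of this size. NAB2 starts at 57.483 Mb, STAT6 at 57.505 and LRP1 at 57.522, within 39 kb of each other. LRP1 is followed after 89 kb by 4 starts packed into 34 kb, NXPH4 at 57.611, SHMT2 at 57.623, NDUFA4L2 at 57.634 and STAC3 at 57.645. R3HDM2 starts at 57.825, a further 180 kb on, and is transcribed on the minus strand toward STAC3. Positions are known to 1 kb, so a window that ends within that distance of a start may or may not hold it.

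Promoters are shown for 4 members: NDUFA4L2 as the hypoxia-induced gene, LRP1 and NAB2 from the stretch with the called 50 kb windows, and R3HDM2 from the largest changes. Each runs from 250 bases before to 50 after the start site, 5′ to 3′ on the gene's own strand, from RefSeq on GRCh38.p14, a build other than that of the windows. Capitals mark ACGTG or GCGTG, the core letters that HIF dimers bind, on either strand (CACGT or CACGC on the printed strand). The windows lie at chr12:57240713-57241012 (minus strand, the first of 2 NDUFA4L2 starts listed), chr12:57128233-57128532 (plus strand), chr12:57088864-57089163 (plus strand) and chr12:57430994-57431293 (minus strand, the first of 3 R3HDM2 starts listed).
NDUFA4L2: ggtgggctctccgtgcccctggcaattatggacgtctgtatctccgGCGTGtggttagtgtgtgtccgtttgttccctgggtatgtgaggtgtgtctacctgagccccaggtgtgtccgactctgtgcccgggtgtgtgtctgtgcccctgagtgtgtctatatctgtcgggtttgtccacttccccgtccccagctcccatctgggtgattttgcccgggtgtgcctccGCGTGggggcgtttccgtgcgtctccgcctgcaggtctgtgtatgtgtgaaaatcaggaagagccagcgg
LRP1: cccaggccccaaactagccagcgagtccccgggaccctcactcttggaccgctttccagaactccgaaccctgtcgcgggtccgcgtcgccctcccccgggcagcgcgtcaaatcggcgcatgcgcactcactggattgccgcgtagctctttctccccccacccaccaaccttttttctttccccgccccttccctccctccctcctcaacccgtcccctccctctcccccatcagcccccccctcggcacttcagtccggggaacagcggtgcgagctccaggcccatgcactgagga
NAB2: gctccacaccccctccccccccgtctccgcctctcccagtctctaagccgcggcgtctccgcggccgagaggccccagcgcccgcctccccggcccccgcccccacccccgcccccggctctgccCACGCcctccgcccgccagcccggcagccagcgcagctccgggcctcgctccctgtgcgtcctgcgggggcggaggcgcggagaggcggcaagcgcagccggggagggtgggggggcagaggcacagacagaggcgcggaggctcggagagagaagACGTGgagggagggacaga
R3HDM2: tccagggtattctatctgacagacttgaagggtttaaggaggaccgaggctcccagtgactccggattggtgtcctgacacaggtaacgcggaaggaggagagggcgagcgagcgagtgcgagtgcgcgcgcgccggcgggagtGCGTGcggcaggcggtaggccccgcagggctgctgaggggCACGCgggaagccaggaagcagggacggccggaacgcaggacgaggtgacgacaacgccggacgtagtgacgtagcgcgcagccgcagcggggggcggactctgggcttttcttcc

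The NDUFA4L2 window holds GCGTG at -204 and -20 from the start site and no ACGTG. The LRP1 window holds neither. NAB2 has 1 ACGTG, 32 bases into the transcribed part, and 1 GCGTG. At the start listed first, both matches of R3HDM2 and both of STAT6 are GCGTG. Of the 8 members, 5 matched an entry of the table (NAB2, STAT6, LRP1, NDUFA4L2 and R3HDM2), and 4 of these 5 hold at least 1 match at the start listed first. Over 35116 promoter windows of the same length, 48.4% hold ACGTG or GCGTG, 21.4% ACGTG and 36.5% GCGTG, so such a match is common. It describes letters, not binding. GC content was 78.3% for NAB2, 67.0% for LRP1 and for R3HDM2, 60.0% for NDUFA4L2 and 57.7% for STAT6, beside a median of 58.7% over all windows.

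With DMSO the block carried strong SON signal. Whether or how the inputs entered the concentrations is not stated. A level is therefore signal as deposited, and not by itself a measure of nearness to speckles. Its 100 kb windows had log2 concentrations from 10.42 to 11.40 with a median of 11.13, and 95.4% of the 90286 measured 100 kb windows (concentration at least 2 in both treatments) lay below that median. The highest level was at 57480001 to 57580000, which holds the starts of NAB2, STAT6 and LRP1, and levels stayed at 11.27 or above through the window that starts at 57580001. From there they dropped to 10.42, first reached at 57680001 to 57780000, between the starts of STAC3 and R3HDM2, and rose again toward R3HDM2. The 50 kb windows resolve the broad crest into 2 summits. One, 10.56, lies at 57475001 to 57525000 over NAB2, STAT6 and LRP1. The other, 10.45, lies at 57585001 to 57635000 and 57590001 to 57640000 over NXPH4, SHMT2 and NDUFA4L2, with a saddle of 10.19 at 57515001 to 57565000 between them. Thus the starts from NAB2 to NDUFA4L2 lie under the 2 summits. That of STAC3 lies just right of them, with 10.17 in the 50 kb window centred nearest to it. The R3HDM2 start sits on the next slope, where 50 kb windows inside the block had 9.62 to 9.76.

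**Figure D1:**
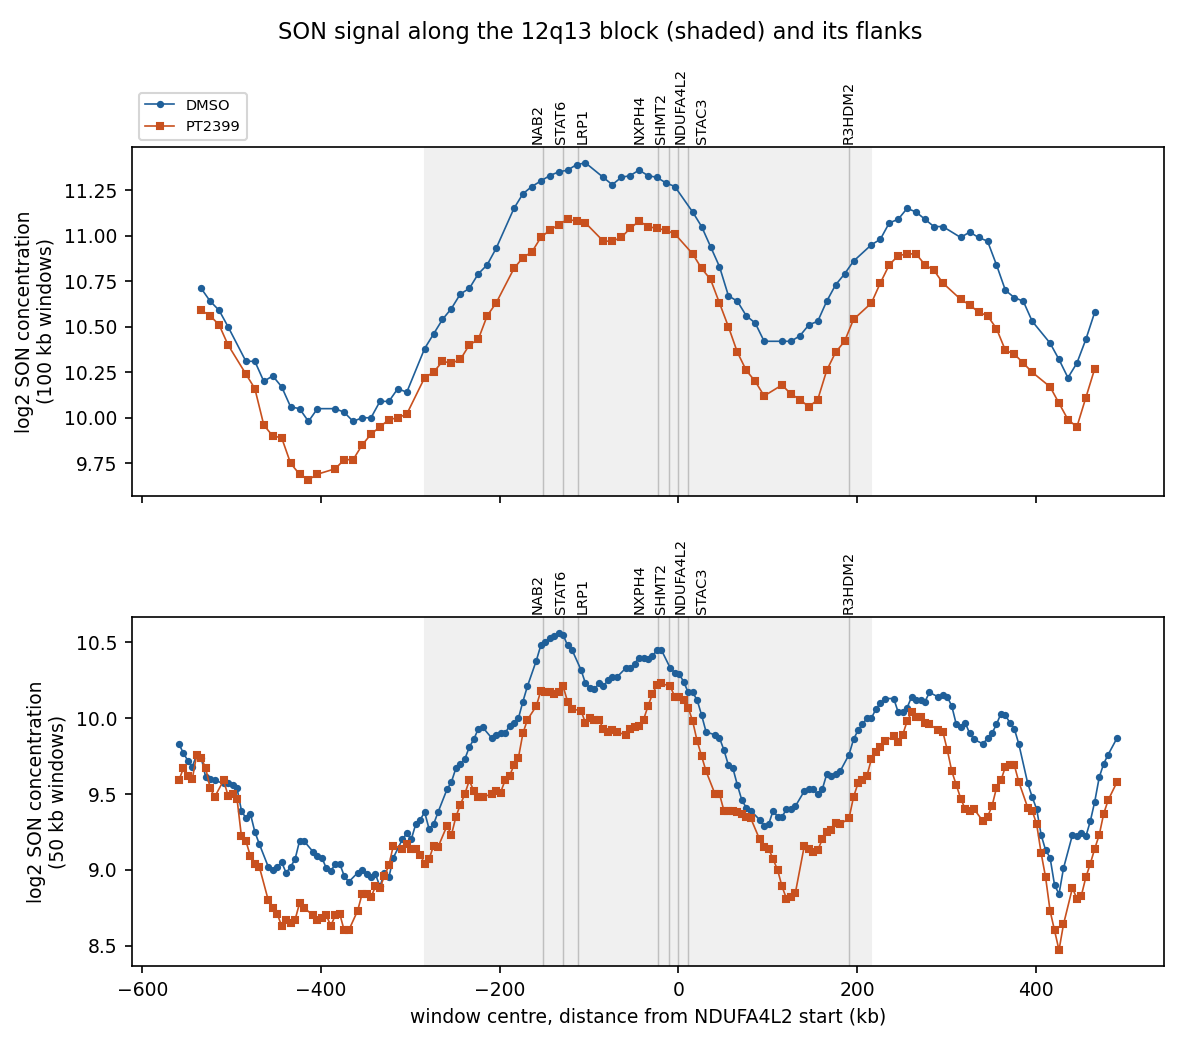
Log2 SON concentration with DMSO (circles) and PT2399 (squares) in each 100 kb (top) and 50 kb (bottom) window by distance of the window centre from the NDUFA4L2 start, in kb; the block is shaded, flanks of up to 300 kb are shown, and grey lines mark gene starts. The PT2399 line lies below the DMSO line in all 37 and all 82 windows of the block, and the level is highest over NAB2, STAT6 and LRP1.

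With PT2399 the signal was lower in every window of the block. The 100 kb concentrations ran from 10.06 to 11.09 with a median of 10.82, and the change (PT2399 minus DMSO, log2) ran from -0.45 to -0.17 with a median of -0.30, which leaves 81.2% of the DMSO level. The 50 kb changes ran from -0.59 to -0.05 with a median of -0.32. A change below 0 was the rule in the whole series: 67.5% of measured 100 kb windows and 64.3% of measured 50 kb windows were below 0, with medians of -0.13 and -0.12. Against that shift the block stood lower by 0.17 at 100 kb. Among the 11950 measured 100 kb windows with a DMSO level in the block's own range, the median was -0.14, and 7.72% had a change at or below the block's median, against 28.3% of all measured 100 kb windows. For the 50 kb windows these shares were 11.6% at the block's level and 29.8% over all.

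At an FDR of at most 0.01 in the authors' deposited tables, 20 of the 37 windows of 100 kb and 9 of the 82 windows of 50 kb were called lower, and 0 were called higher. Over all measured windows, 1.55% were called lower at 100 kb and 0.357% at 50 kb, while 0.0853% and 0.0291% were called higher. Calls are more frequent at high SON levels: among windows at the block's DMSO level, 5.36% and 1.12% were called lower. The same contrast chose the block, so the larger shares inside it follow from that choice. The authors' own list of lower windows contains exactly these 20 and 9 windows. Each set's median over measured windows was also subtracted, with a standard error derived from the authors' fold and p. After that, 0 windows of the block were called at either size, and the lowest Benjamini-Hochberg adjusted p was 0.0366 at 100 kb. Lower calls were then few over all measured windows too, from 8 to 25 per set at 100 kb and from 4 to 14 at 50 kb. The 9 sets of each size together hold 90286 and 178559 measured windows, so 0 in the block is near the overall share. On this recentred scale 24 of the 37 and 33 of the 82 windows had an unadjusted p below 0.05, all on the lower side, beside 5.20% of all measured 100 kb windows and 4.13% of all measured 50 kb windows on that side. At the block's DMSO level the shares were 7.42% and 6.36%. These counts come from the contrast that chose the block and are a description too.

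The lower 100 kb windows formed 2 stretches with a gap of 70 kb between them. The first ran from 57340001 to 57660000, 320 kb built from 18 called windows of which 17 lie inside the block. Its lowest FDR was at 57500001 to 57600000, over the starts of STAT6 and LRP1, where SON signal went from 11.32 to 10.97, a change of -0.35 (the authors' deposited table gives an FDR of 8.72e-06). This was the lowest FDR of the 30 lower measured regions on chromosome 12. Over all chromosomes the region ranked 22 of 353 by its lowest FDR and 287 of 353 by the change in that window. The other stretch began at 57730001, over the R3HDM2 start, and ran past the block to 58050000, with 3 of its 14 called windows inside. Its lowest FDR lay outside the block, at 57920001 to 58020000, where the change was -0.41 (the authors' deposited table gives an FDR of 1.04e-05). The authors' unadjusted p there was 8.83e-09, smaller than the 1.49e-08 at 57500001 to 57600000. Windows that start from 57570001 to 57720001 were not called, though their changes were still negative, from -0.35 to -0.17. The limits of the block do not coincide with those of the lower signal: the window just outside at the left, 57340001 to 57440000, had -0.36 and the first inside, 57350001 to 57450000, had -0.31. At the right, the last inside, 57750001 to 57850000, had -0.38 and the next, 57760001 to 57860000, had -0.37.

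**Figure D2:**
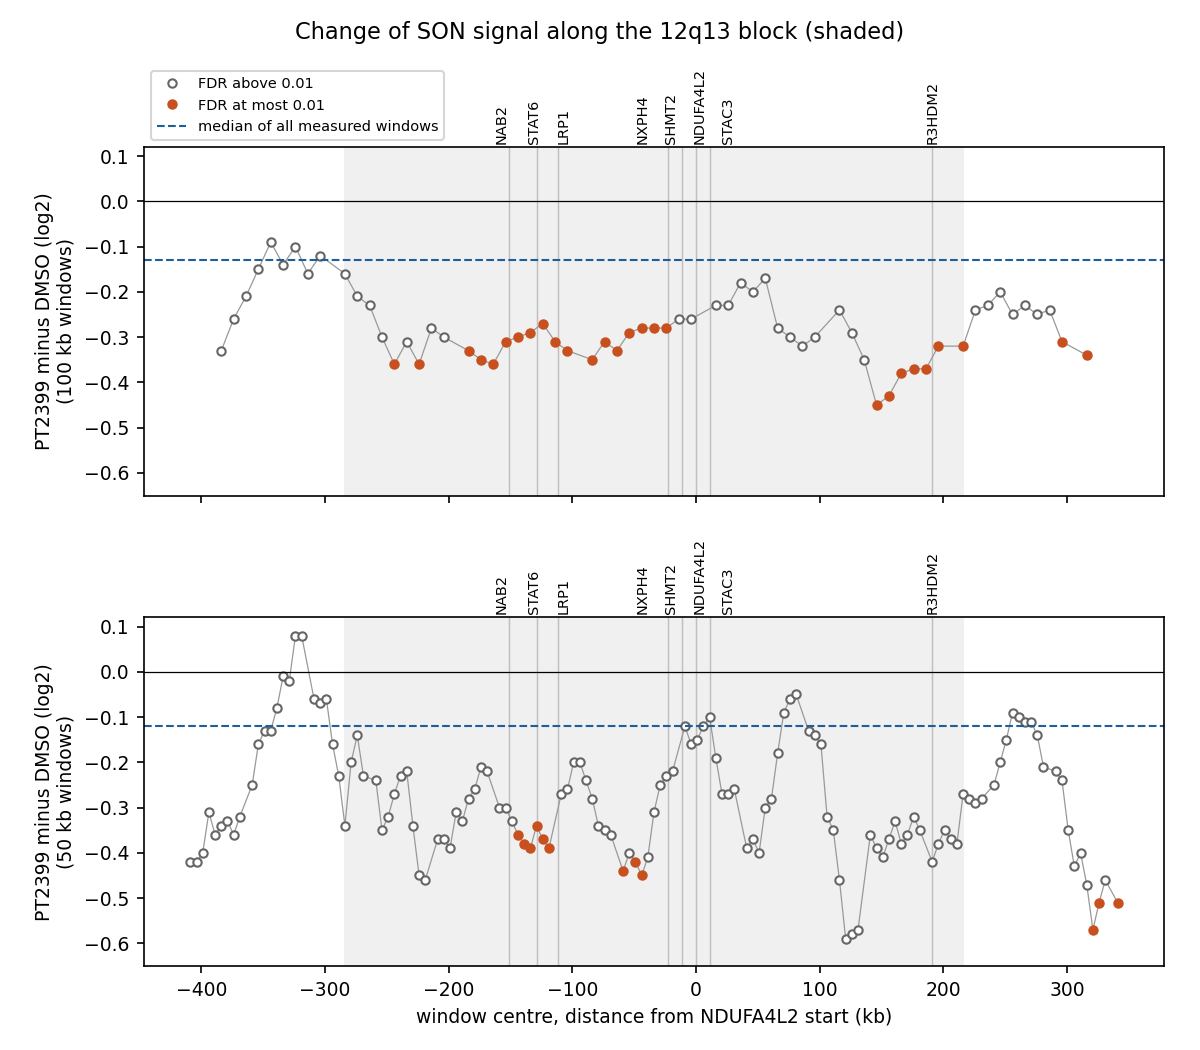
Change in log2 SON concentration (PT2399 minus DMSO) in each 100 kb (top) and 50 kb (bottom) window by distance from the NDUFA4L2 start in kb; filled circles are windows with an FDR of at most 0.01 in the authors' tables, the dashed line is the median of all measured windows, and the block is shaded. The 9 called 50 kb windows of the block lie left of NDUFA4L2, and in the bottom panel the window centred nearest to its start, at -0.15, lies close to the dashed line, whereas the nearest 100 kb window is at -0.26.

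Around NAB2, STAT6 and LRP1 the lower signal was seen at both window sizes. All 9 of the 100 kb windows that hold the NAB2 start were called lower, with DMSO from 11.15 to 11.40, PT2399 from 10.82 to 11.09 and a median change of -0.31. The 9 windows over STAT6 and the 9 over LRP1 were likewise all called, with medians of -0.31 each, and they are mostly the same windows, since the 3 starts are so close. At 50 kb the best window of all 3 was 57475001 to 57525000, where signal went from 10.56 to 10.17, a change of -0.39 (the authors' deposited table gives an FDR of 0.00192). In the 50 kb windows centred nearest to the starts, NAB2 had -0.33, STAT6 -0.34 and LRP1 -0.27. Their FDR in the authors' deposited tables was 0.0128, 0.00913 and 0.0994, so of these only the STAT6 window was called. STAT6 had the lower 50 kb median, -0.36, with 6 of 9 windows called. NAB2 had -0.33 with 4 of 9, and LRP1 had -0.27 with 4 of 9. The weaker LRP1 value comes from windows that reach into the first part of the gene: 57510001 to 57560000 and 57515001 to 57565000 each had -0.20.

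The lowest SON signal relative to DMSO on the crest lay downstream of the LRP1 start rather than over it. The window 57550001 to 57600000, between the starts of LRP1 and NXPH4, went from 10.33 to 9.89, a change of -0.44 that leaves 73.7% of the DMSO level (the authors' deposited table gives an FDR of 0.0023). The window 57565001 to 57615000, which reaches the NXPH4 start, went from 10.40 to 9.95, a change of -0.45 (the authors' deposited table gives an FDR of 0.00426). LRP1 is transcribed on the plus strand, so these windows lie toward its 3′ side. NXPH4 itself showed the widest spread of any member at 50 kb, from -0.45 in windows that extend to its left to -0.12 in those that extend to its right, with 1 of 9 called and a median of -0.23. At 100 kb its 9 windows had a median of -0.28, and 5 were called.

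Of the 8 genes, NDUFA4L2, SHMT2 and STAC3 had the smallest median changes at 50 kb. For NDUFA4L2, the 9 windows of 50 kb that hold its start had DMSO from 10.12 to 10.45 and PT2399 from 9.85 to 10.23, with changes from -0.27 to -0.10 and a median of -0.16. Changes of -0.22, -0.23 and -0.27 were found in 3 of the 9, with unadjusted p of 0.0113, 0.0108 and 0.00756 in the authors' deposited table. None of the 9 was called: the lowest FDR was 0.143 in the authors' deposited table, and the window centred nearest to the start, 57610001 to 57660000, went from 10.29 to 10.14. That change of -0.15 has a standard error of 0.108, derived from the authors' fold and p, and lies close to the -0.12 median of all measured 50 kb windows. SHMT2 also had a median of -0.16 at 50 kb with 0 of 9 called, and so did STAC3; the lowest FDR was 0.0681 for SHMT2 and 0.143 for STAC3 in the authors' deposited tables. Here the unadjusted p of the best-centred window was 0.203 for SHMT2, 0.164 for NDUFA4L2 and 0.364 for STAC3, again as the authors deposited them.

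At 100 kb the same 3 genes had larger negative values, in windows that also cover their neighbours. NDUFA4L2 had DMSO from 10.83 to 11.36, PT2399 from 10.63 to 11.08 and changes from -0.28 to -0.18, with a median of -0.26 and 3 of 9 windows called. The 3 called windows all begin at or before 57560001 and so overlap the called 50 kb windows on the LRP1 side. The 100 kb window centred nearest to the NDUFA4L2 start, 57580001 to 57680000, had -0.26 with an FDR of 0.0115 in the authors' deposited table, just above the threshold. SHMT2 had a median of -0.26 with 4 of 9 called and STAC3 -0.23 with 2 of 9. At both sizes the median changes of NAB2, STAT6, LRP1 and R3HDM2 were thus more negative than that of NDUFA4L2. That difference between members was not tested, as neighbouring windows share DNA and no values per library were at hand.

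**Figure D3:**
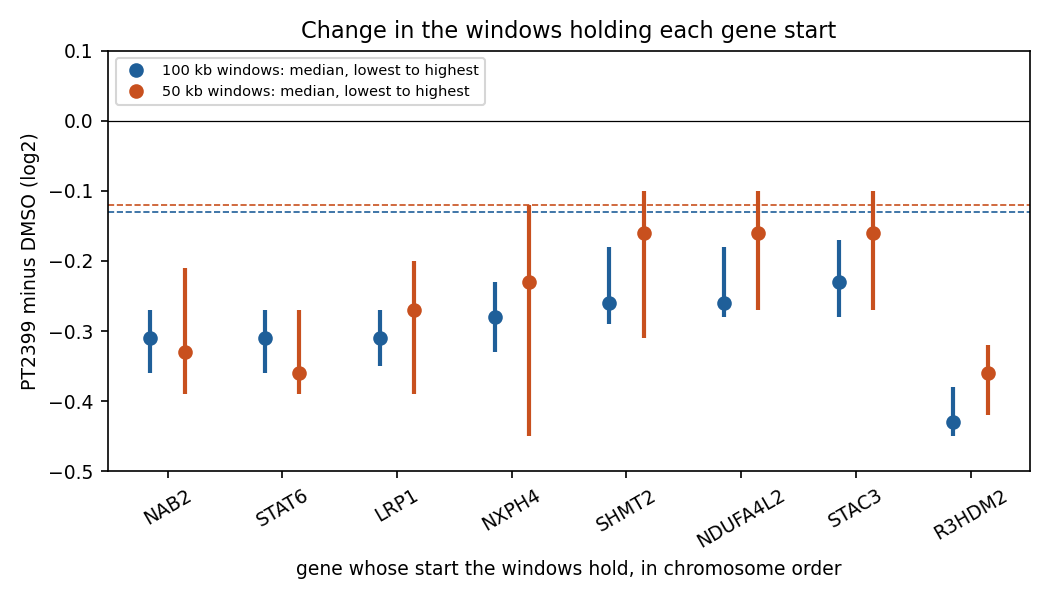
Change in log2 SON concentration (PT2399 minus DMSO) in the windows of the block that hold each gene start, in chromosome order; points are medians and bars run from the lowest to the highest of the windows (9 per gene and size, but 3 and 5 for R3HDM2), which overlap and are not replicates. Dashed lines are the medians of all measured windows of each size, and at 50 kb the medians of SHMT2, NDUFA4L2 and STAC3 are each -0.16.

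R3HDM2 had the largest changes of the 8 genes at 100 kb. Only 3 windows of 100 kb that hold its start lie inside the block; DMSO was 10.51, 10.53 and 10.64, PT2399 was 10.06, 10.10 and 10.26, and all 3 were called lower. The largest change was -0.45 at 57730001 to 57830000 (the authors' deposited table gives an FDR of 0.000304). The 100 kb windows that hold its start but run past the block had smaller changes, from -0.37 to -0.23. At 50 kb its 5 windows inside the block had DMSO from 9.62 to 9.76, PT2399 from 9.25 to 9.34 and a median change of -0.36. Of these, 0 of 5 were called, with a lowest FDR of 0.0618 in the authors' deposited table. Those that run past the block had -0.38 to -0.35 and were not called either, with a lowest FDR of 0.0298 in the authors' deposited table. The most negative 50 kb windows of the whole block lie between the STAC3 start and the R3HDM2 start used here. RefSeq lists 2 further R3HDM2 starts, with promoter windows at chr12:57342407-57342706 and chr12:57341725-57342024 on GRCh38, between NDUFA4L2 and the R3HDM2 start used here. They were not mapped to hg19 by sequence. Going by the shift between the builds at the members' listed starts, both lie near the left end of 57730001 to 57780000. The window 57690001 to 57740000 would hold them too. In the first of these windows, 57730001 to 57780000, signal went from 9.40 to 8.81, a change of -0.59 that leaves the FDR at 0.0144 in the authors' deposited table. The 2 windows that follow had -0.58 and -0.57. To their left, 57690001 to 57740000 went from 9.39 to 9.34, a change of -0.05 and the smallest of the block. The dip in DMSO signal between STAC3 and R3HDM2 was therefore deeper and placed further right with PT2399.

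The 10 windows of 50 kb that tile the block without overlap give the picture in stretches that share no DNA. Summed as linear concentrations they held 81.1% of the DMSO signal with PT2399, and pairs of them added up to between 99.5% and 100.6% of the matching 100 kb windows in either treatment. The tile 57550001 to 57600000, downstream of the LRP1 start, had 12.8% of the DMSO signal and 17.8% of the loss. It was the only tile called lower, with an FDR of 0.0023 in the authors' deposited table. The next tile, 57600001 to 57650000, holds the starts of NXPH4, SHMT2, NDUFA4L2 and STAC3; it had the same DMSO level of 10.33, 12.8% of the signal, and 5.42% of the loss. The change was -0.44 (95% interval -0.63 to -0.25, from the derived error) in the first and -0.12 (-0.30 to 0.06) in the other, and these intervals overlap slightly. The tile over NAB2 had 13.3% of the DMSO signal and 13.2% of the loss, and the tile over STAT6 and LRP1 had 12.7% and 11.5%, so their loss was about in proportion to their signal. Neither was called, with an FDR of 0.0425 for the NAB2 tile and 0.0994 for the other in the authors' deposited table. The last tile, over the R3HDM2 start, had 8.62% of the DMSO signal and 11.6% of the loss. A small loss for its signal was also seen in the tile 57700001 to 57750000. Its change was -0.13, with 6.40% of the DMSO signal and 2.93% of the loss.

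**Figure D4:**
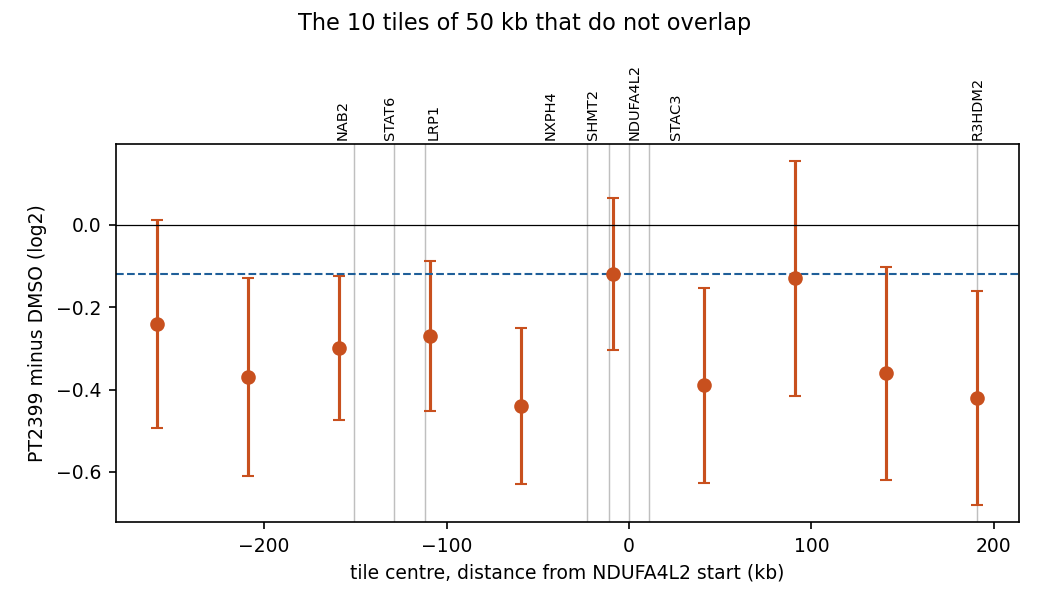
Change in log2 SON concentration (PT2399 minus DMSO) in the 10 tiles of 50 kb by distance of the tile centre from the NDUFA4L2 start in kb; bars are 95% intervals from an error derived from the authors' fold and p, and the dashed line is the median of all measured 50 kb windows. The tile at the NDUFA4L2 start, at -0.12, lies on the dashed line.

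The flanks show how far the lower signal extends. Over the 500 kb to the left, the 45 measured windows of 100 kb had a median change of -0.22, a median DMSO level of 10.89 and 0 calls in the authors' deposited tables, with 31 of the 45 (68.9%) at an unadjusted p below 0.05. That share was 17.2% over all measured 100 kb windows and 40.5% at the block's DMSO level. Over the 500 kb to the right, 41 measured windows had a median of -0.31 at a DMSO level of 10.43, and 7 were called. Chromosome 12 as a whole had a median of -0.15 over 5359 measured windows, of which 2.07% were called lower. The block thus had about the median of its right flank, and a larger share of called windows than either flank, as the way it was chosen would give.

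In the gene lists that the authors deposited for the lower windows, 7 of the 8 members were named at 100 kb, all but R3HDM2, and 4 at 50 kb: NAB2, STAT6, LRP1 and NXPH4. Of all protein-coding genes, 4.27% were in the first list and 1.1% in the other. R3HDM2 was in neither, although its start lies in 3 called 100 kb windows of the block; the rule by which genes were assigned to windows is not stated in the labels or files. NDUFA4L2 entered through the 100 kb windows alone. Of 37 neighbouring genes on 12q13, 19 were in the 100 kb list, and in RefSeq order of protein-coding genes they and the members form a run from RDH16 to B4GALNT1 that leaves out R3HDM2 and 1 unnamed locus. At 50 kb the neighbours listed were NEMP1, next to NAB2, and further right DCTN2, KIF5A, PIP4K2C, DTX3 and ARHGEF25.

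NDUFA4L2 was 1 of several genes induced through HIF in the authors' deposited 100 kb list. Whether these genes depend on HIF-2 in these cells was not tested. Of a list of 31 other genes induced through HIF, 7 were in the authors' deposited 100 kb list: SLC2A1 (glucose uptake), CCND1 (cyclin D1), SCARB1 (a lipoprotein receptor), SLC7A5 (amino acid uptake), P4HA1 (a collagen prolyl hydroxylase), DDIT4 (an inhibitor of mTORC1 signalling) and TGFBI (a matrix protein). Of these 7, CCND1, SLC2A1, P4HA1, DDIT4 and TGFBI were also in the 50 kb list, unlike NDUFA4L2. The shares of the 31 were 22.6% and 16.1%, beside 4.27% and 1.1% of all protein-coding genes. Those in neither list include VEGFA, CA9, NDRG1 and EGLN3. The list of 31 was drawn up with results of these data known, so its count supports no statement about genes induced through HIF in general.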

How the data were processed

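SON TSA-seq was compared between PT2399 and DMSO in 786-O cells. Bowtie2, Picard, DiffBind, bedtools and hg19 are named in the submitters' processing notes, without roles or settings. Per the file headers, the deposited tables hold log2 concentrations (1 mean per treatment), a log2 fold (control minus treatment, turned here), a p-value and an FDR for 9 sets of 100 kb windows (step 10 kb) and 9 of 50 kb (step 5 kb). Other deposited files list windows or gene symbols.

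Gene starts came with the definition of the block. Called means an FDR of at most 0.01. Windows were recentred on each set's median, with a standard error of absolute fold over normal quantile of p; under a fold of 0.1 or at a p of 0.5 or more, the median of 20 level bins was used. A check of this step on simulated data cannot judge it for the block. It took p from the same error that the step recovers and planted larger changes than the block's, with independent errors. Deposited symbols were updated through RefSeq (GRCh38), matching 982 of 1023 and 251 of 258. The members, gene lists and named genes (the 8 members, and listed genes of the fixed lists) were chosen with earlier results of these data known. One further gene list is not reported here. Depth per library is unknown. The software was Python 3.11.15 with scipy 1.17.1, numpy 2.4.6, matplotlib 3.10.9 and pandas 2.3.3.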

Additional observations from a re-analysis of the deposited data

How the results depend on the processing

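The scaling between treatments decides whether windows of the block are called. With recentring and the implied error, 0 windows were called lower at 100 kb and 0 at 50 kb, against 20 and 9 as deposited. The implied error alone gave 20 and 7. On the recentred scale lower calls were few over all measured windows too, at most 25 per set at 100 kb and 14 at 50 kb. The block's median change went from -0.30 to -0.17 at 100 kb and from -0.32 to -0.20 at 50 kb when recentred on all measured windows, to -0.14 and -0.175 on those of chromosome 12, and, in a setting chosen after seeing the data, to -0.16 and -0.18 on windows at the block's DMSO level. It stayed below 0 throughout. Near NDUFA4L2, SHMT2 and STAC3 the 50 kb medians of -0.16 became -0.04 on recentring and -0.02 against windows at the block's level. Their 100 kb medians became -0.13, -0.13 and -0.10 on recentring, and -0.12, -0.12 and -0.09 against windows at the block's level. For the other members the recentred 50 kb medians ran from -0.24 (STAT6 and R3HDM2) to -0.11 (NXPH4). At an FDR of 0.05 the counts called lower were 32 at 100 kb and 25 at 50 kb, and at 0.001 they were 15 and 0. The changed counts follow from the moved threshold. The share of all measured windows called at these thresholds was not computed, so these counts have no background beside them. At 50 kb, 66 of 82 windows (80.5%) had an unadjusted p below 0.05 in the authors' deposited tables. That share was 11.5% over all measured 50 kb windows and 24.2% at the block's DMSO level. Single sets gave medians from -0.34 to -0.285 at 100 kb and from -0.35 to -0.28 at 50 kb. Adjustment over all sets, a minimum concentration of 4 and windows overlapping the limits left counts within 1.5 times. No paired analysis was possible because the tables hold 1 mean per treatment and no value per library; leaving out a replicate could not be run for the same reason.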

Other observations

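Among the genes that follow R3HDM2 in RefSeq order are GLI1, a transcription factor of hedgehog signalling, and DDIT3, which encodes the stress-induced transcription factor CHOP; both were in the authors' deposited 100 kb gene list and neither in the 50 kb list. Right of the block, the lowest 50 kb FDR within 500 kb was at 57930001 to 57980000, where SON signal went from 9.97 to 9.40, a change of -0.57 (the authors' deposited table gives an FDR of 0.00138).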
